A study of Mus musculus with 6 samples.

Results

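The oxidative phosphorylation genes described here were the rows of the expression table whose symbols name subunits of the respiratory chain and of ATP synthase. They were taken by symbol (Nduf genes, Sdha to Sdhd, Uqcr genes, Cox4 to Cox8 genes, Atp5 genes and the mt-Nd, mt-Co, mt-Cytb and mt-Atp genes), without pseudogene symbols, and no measured value was used. The rule found 106 of the 38926 genes in the table, 93 encoded in the nucleus and 13 encoded by mitochondrial DNA. By role they were 36 nuclear subunits of complex I, 4 of complex II, 8 of complex III, 19 of complex IV (Ndufa4 and Ndufa4l2, once counted to complex I, included), 15 of complex V, 7 complex I assembly factors (the Ndufaf genes), 4 other symbols and the 13 mitochondrially encoded genes. The 4 other symbols were Atp5s, Atp5sl, Cox7a2l, a factor of respiratory supercomplexes, and Atp5l2, which the GENCODE M21 and RefSeq annotations list as a processed pseudogene.

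RNA was sequenced from LSK cells, the bone marrow fraction that lacks lineage markers and carries Sca-1 and Kit, sorted from collagenase-digested femur and tibia of C57BL/6 mice aged 8 to 12 weeks. The mice of the 3 haloperidol libraries had received haloperidol, a dopamine receptor blocker used as an antipsychotic, by injection on each of 3 days in a row, and those of the 3 DMSO libraries DMSO as vehicle, and the same agent was kept with the cells during the sort. No transgene or other allele is named for either group. The labels do not say whether replicates came from separate mice or from pools, so p-values measure the spread between these libraries, which may be technical, and any day of sorting or sequencing cannot be told apart from the treatment. Levels are in FPKM, fragments scaled to exon length and sequencing depth, which allows genes of different length to be compared, and fold changes are haloperidol over DMSO on the log2(FPKM + 1) scale.

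Oxidative phosphorylation passes electrons from NADH through complex I, or from succinate through complex II, to complex III, cytochrome c and complex IV, where oxygen is reduced. Complexes I, III and IV pump protons across the inner mitochondrial membrane, and complex V lets them back to make ATP. Complexes I, III, IV and V are built from products of both genomes, whereas every subunit of complex II comes from the nucleus. Haematopoietic stem cells are known for relying less on respiration than the progenitors they give rise to, and the LSK gate holds both.

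The libraries held 8523556 to 8969045 reads assigned to genes, recovered from the steps between FPKM values. A gene with no read could at this depth still hold 0.334 to 0.352 RPM, reads scaled to library size, by counting error alone. Kit (87.8 ± 7.38 against 81.0 ± 9.78 FPKM in DMSO and haloperidol libraries, SD, n = 3 each) and Ly6a, which encodes Sca-1 (136 ± 10.2 against 138 ± 10.5 FPKM), were present in both groups and not past the threshold. Of 7 genes of the gate and of progenitors 1 rose, Flt3, and 3 fell, Cd34 and Meis1 among them. Whether the makeup of the gated cells differed was not tested. Of the 4 monocyte markers tested 2 rose, Cd68 and F13a1, and the summed level of that list was 28.6 to 33.4 FPKM in DMSO and 56.3 to 70.7 FPKM in haloperidol libraries. The sum rested largely on Cd68 (16.2 against 44.9 FPKM on average), whereas Cx3cr1 of the same list, too low to be tested, was at 1.20, 1.42 and 1.19 against 0.28, 0.24 and 0.63 FPKM. All 3 B lineage markers tested fell (summed level 36.7 to 39.3 against 23.1 to 25.9 FPKM), and none of 9 erythroid and 8 neutrophil markers passed the threshold. Erythroid markers, haemoglobin genes among them, summed to 3596 to 4764 FPKM in DMSO and 4163 to 5499 FPKM in haloperidol libraries, and neutrophil markers to 165 to 281 and 171 to 304 FPKM. Of the others tested, none of 2 T and NK markers passed. Of 4 endothelial markers 2 did (Emcn and Tie1, lower), and of 3 stromal markers 1 (Pdgfrb, higher). Levels within these lists ranged widely. Cd8a and Bglap had 0 reads and Cd3e, Cdh5 and Col1a1 at most 2. In contrast, Nkg7 had 2122 to 2625 reads a library, Pecam1 582 to 663, Tek 145 to 204 and Cxcl12 864 to 1427. In bulk RNA, fewer cells of a type and less RNA per cell cannot be told apart, and the part of these cell types in the results below was not tested.

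**Figure D1:**
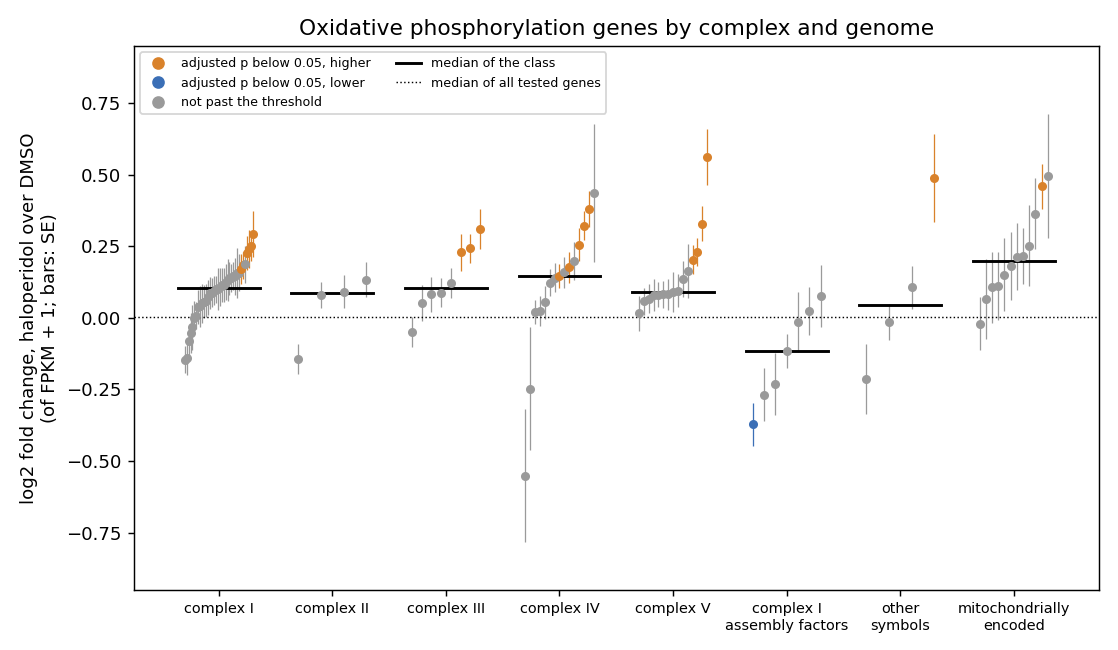
Log2 fold change (haloperidol over DMSO, of FPKM + 1) of each of the 101 tested genes, grouped by complex and genome, with bars of 1 SE and a black line at each class median. Class medians of the 5 complexes lie between 0.09 and 0.15, that of complex I assembly factors at -0.12 and that of the mitochondrially encoded genes at 0.20, while the dotted line marks the median of all tested genes at 0.00.

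Nuclear transcripts of the respiratory chain and ATP synthase were on the whole slightly more abundant with haloperidol, and with all 6 libraries no nuclear subunit of a complex passed the threshold in the other direction. Of the 106 genes, 101 had a mean of at least 1 FPKM and were tested, and 20 of them rose and 1 fell (limma, adjusted p below 0.05). Across all 11436 tested genes, 11.5% rose and 13% fell, 24.5% in either direction, so the share of these genes that rose was 19.8% and the share that fell 0.99%. Oxidative phosphorylation genes are abundant, and changes of abundant genes are easier to call. Among the 85 with a mean of at least 30 FPKM, 18 rose and 0 fell, a share of 21.2% beside 18.3% that rose and 16.8% that fell among all 2644 genes of that abundance. At that abundance the share that rose was near the background. By complex, and at any abundance, the share of tested nuclear subunits that rose was 16.7% for I and 0% for II. It was 37.5% for III, 33.3% for IV and 26.7% for V.

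The changes were small and mostly of one sign. Of the 101 genes 84 were higher on average with haloperidol, at a median log2 fold change of 0.11, where the median of all tested genes was 0.00 and 50.4% of them were higher. For 41 genes all haloperidol libraries lay above all DMSO libraries, and for 5 they lay below. Such separation was seen upward in 21.0% and downward in 22.1% of all tested genes. With 1 library left out the number that rose was 12, 13 and 11 without DMSO replicate 1, 2 and 3, and 12, 18 and 11 without haloperidol replicate 1, 2 and 3. The number that fell was 3 without DMSO replicate 1 and 4 without haloperidol replicate 3.

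The nuclear genes took 1.61%, 1.65% and 1.64% of all reads in DMSO replicates 1, 2 and 3 and 1.71%, 1.72% and 1.78% in haloperidol replicates 1, 2 and 3, with no overlap between groups. Their median deviation from each gene's DMSO mean was 0.08, 0.06 and 0.16 on the log2 scale in the 3 haloperidol libraries. Replicate 3 was the highest of them in each of complexes I to V. The median log2 fold change of the nuclear genes was 0.10, and 0.06 without haloperidol replicate 3.

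Subunit c of ATP synthase forms the rotor ring in the membrane and is encoded by 3 nuclear genes, Atp5g1, Atp5g2 and Atp5g3, which differ in their import sequences and give the same mature protein. All 3 rose, from 3 different chromosomes, so the 250 bases before their annotated starts are shown, from RefSeq on GRCm38.p6 (the assembly also called mm10), with that of Cox6a1, a complex IV gene that rose and holds the most searched motifs of the 4. Capitals mark matches on either strand to motifs of factors known for respiratory chain genes: CGCATGCG, the core of the NRF1 site, and its looser form CGCNTGCG, CCGGAAG for ETS factors such as GABP, AAGATGGC for YY1 and TCAAGGTCA for oestrogen-related receptors. The loose NRF1 form includes the strict one. Starts differ between annotations. The window of Atp5g2 lies within the GENCODE M21 span of that gene (102662864 to 102672352), so by that annotation it is not upstream. The windows of Atp5g1 and Cox6a1 overlap the ends of their spans in part.
Atp5g1, chr11:96075632-96075881, minus strand: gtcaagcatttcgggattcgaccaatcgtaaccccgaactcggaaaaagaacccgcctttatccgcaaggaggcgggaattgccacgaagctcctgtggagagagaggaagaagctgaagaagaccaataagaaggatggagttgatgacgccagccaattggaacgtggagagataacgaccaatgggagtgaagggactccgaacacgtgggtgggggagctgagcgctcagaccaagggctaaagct
Atp5g2, chr15:102671048-102671297, minus strand: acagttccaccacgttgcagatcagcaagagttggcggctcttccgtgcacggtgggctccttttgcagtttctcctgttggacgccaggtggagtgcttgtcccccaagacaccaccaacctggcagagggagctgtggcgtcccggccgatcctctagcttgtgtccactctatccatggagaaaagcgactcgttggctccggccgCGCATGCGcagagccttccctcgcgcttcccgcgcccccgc
Atp5g3, chr2:73911327-73911576, minus strand: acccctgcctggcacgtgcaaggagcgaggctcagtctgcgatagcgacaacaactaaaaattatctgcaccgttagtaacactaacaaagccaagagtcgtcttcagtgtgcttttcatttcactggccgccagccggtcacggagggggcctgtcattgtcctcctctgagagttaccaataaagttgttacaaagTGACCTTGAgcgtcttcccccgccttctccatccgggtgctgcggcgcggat
Cox6a1, chr5:115348959-115349208, minus strand: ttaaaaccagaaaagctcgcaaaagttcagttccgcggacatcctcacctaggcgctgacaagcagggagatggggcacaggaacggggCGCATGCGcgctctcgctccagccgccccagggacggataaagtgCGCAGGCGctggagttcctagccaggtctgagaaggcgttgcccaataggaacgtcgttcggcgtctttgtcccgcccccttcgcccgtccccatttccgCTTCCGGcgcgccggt
Over these 250 bases the 3 subunit c genes share none of the marked matches: that of Atp5g1 holds none, Atp5g2 has the strict NRF1 form and Atp5g3 the receptor motif on the other strand.

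The same search was made over windows from 250 bases before to 50 bases after the start, for which 76 of the 93 nuclear genes had 82 windows. The strict NRF1 form was in 11 of these windows (13.4%) and in 4.03% of the 10916 windows of tested genes, and the loose form was in 40.2% and 17.6%. The YY1 motif was in 12 windows (14.6%) beside 4.76%, and the ETS motif in 20.7% beside 19.0%. The receptor motif was in 2.44% beside 0.25%, and GGGCGG, the core of Sp1 sites, in 42.7% beside 63.2%. Among the 17 windows of subunit genes that rose, the YY1 motif was in 0, whereas it was in 12 of the 63 windows of the other tested nuclear genes. The strict NRF1 form was in 4 of the 17 and 7 of the 63. The loose form was in 7 of the 17 and 26 of the 63 (41.2% and 41.3%), and in these longer windows both Atp5g2 and Atp5g3 held it. A match is a run of letters in a window and no measure of binding.

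**Figure D2:**
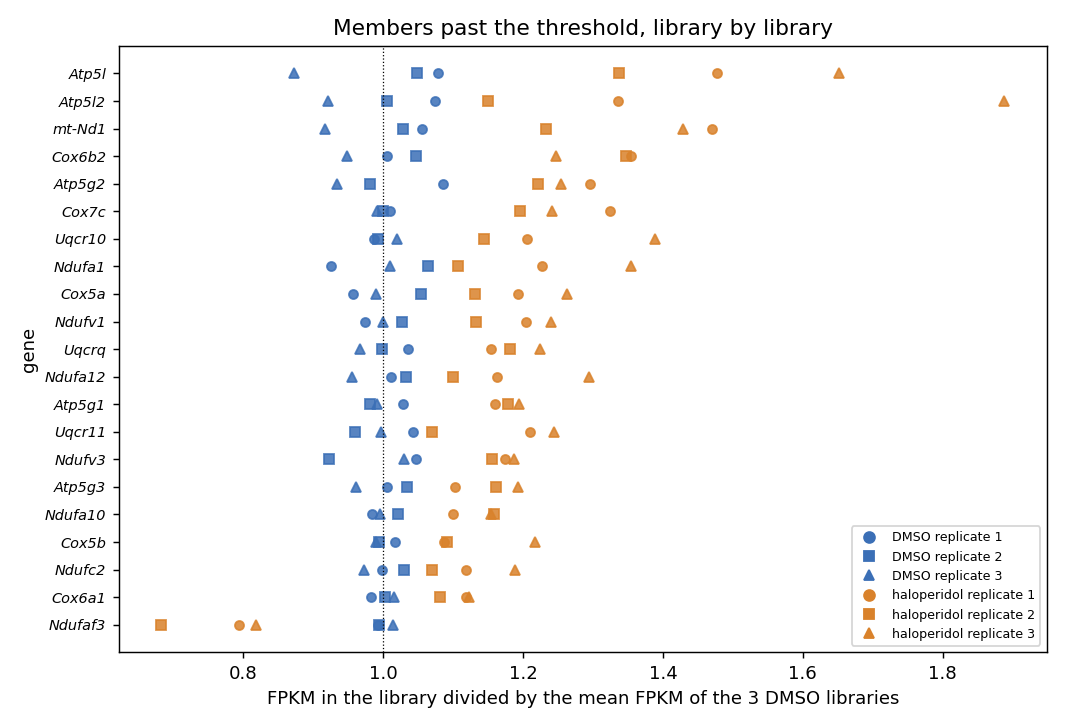
FPKM of each of the 21 genes past the threshold in each library, divided by the gene's mean over the 3 DMSO libraries (blue, DMSO; orange, haloperidol; symbols, replicates 1 to 3). Haloperidol libraries lie to the right of all DMSO libraries for 20 genes and to the left for Ndufaf3, and Atp5l has the highest fold, 1.48.

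Among the 36 nuclear subunits of complex I, the NADH dehydrogenase, 6 rose and 0 fell, with 31 higher on average and a median log2 fold change of 0.10. The 16.7% that rose stood beside 11.5% of all tested genes and 18.3% of those with a mean of at least 30 FPKM. Ndufv1, the core subunit that binds NADH and its flavin, measured 79.8, 84.2 and 81.9 FPKM in the DMSO and 98.7, 92.9 and 102 FPKM in the haloperidol libraries. The groups did not overlap, and the difference was 0.25 on the log2 scale (SE 0.05, limma adjusted p = 0.00978). Its gene lies on chromosome 19, 4007384 to 4012806, in the mm10 coordinates of GENCODE M21. The core subunits Ndufs1, Ndufs3, Ndufs7, Ndufs8 and Ndufv2 did not pass the threshold, and 4 of these 5 were higher on average. Ndufs1, the largest subunit, was at 39.1 ± 3.21 and 38.2 ± 2.88 FPKM (SD, n = 3).

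The other 5 that rose were accessory subunits, which surround the catalytic core. Ndufa1, an X-linked subunit, went from 180 ± 12.6 to 222 ± 22.3 FPKM (log2 fold change 0.29, limma adjusted p = 0.0304), and Ndufa12 from 84.3 ± 3.37 to 99.9 ± 8.33 FPKM (0.24, adjusted p = 0.0313). Ndufa10, Ndufv3 and Ndufc2 rose by 0.18, 0.23 and 0.17 on the log2 scale. These 5 calls were near the threshold: each was lost in 4 or 5 of the 6 fits that left out 1 library, and the highest adjusted p over all settings ran from 0.0727 for Ndufa10 to 0.126 for Ndufc2. In those fits the complex had 2 subunits that rose without DMSO replicate 1, 2 or 3 or haloperidol replicate 1, 5 without haloperidol replicate 2 and 1 without haloperidol replicate 3. Ndufa9, an accessory subunit that binds NADPH, was the only one of the 36 with all haloperidol libraries below the DMSO libraries. It was at 153, 162 and 165 against 143, 143 and 146 FPKM and missed the threshold (log2 fold change -0.15, adjusted p = 0.0523). It passed without DMSO replicate 1 (-0.18, adjusted p = 0.0406), with a common sum of all or of nuclear FPKM and with a mean of at least 5 FPKM. Ndufa13, another accessory subunit, was lower on average (-0.14, adjusted p = 0.117) and passed without haloperidol replicate 3 (-0.19, adjusted p = 0.0438). Ndufb9 (259 ± 9.14 and 260 ± 8.2 FPKM) and Ndufa2 had the highest DMSO levels in this complex.

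Complex I is put together with the help of assembly factors, and most of the 7 Ndufaf transcripts were lower on average, unlike its subunits. Ndufaf3, which acts at an early step of assembly, was the 1 gene that fell. It was at 22.1, 22.1 and 22.6 FPKM in the DMSO libraries and 17.7, 15.2 and 18.2 FPKM in the haloperidol libraries, with no overlap (log2 fold change -0.37, SE 0.07, limma adjusted p = 0.00828). The gene lies on chromosome 9, 108565537 to 108567434. The 1 call of 7 is a share of 14.3%, near the 13% of all tested genes that fell. Of the 7 factors 5 were lower on average, at a median of -0.12. For 3 of them (42.9%, beside 22.1% of all tested genes) all haloperidol libraries lay below the DMSO libraries. The other two were Ndufaf6 (17.6 ± 0.758 and 14.6 ± 1.99 FPKM, log2 fold change -0.27, adjusted p = 0.0661) and Ndufaf7, a methyltransferase (20.7 ± 1.12 and 19.0 ± 0.411 FPKM, adjusted p = 0.196). Ndufaf5 was at 8.37 ± 0.962 and 6.98 ± 0.908 FPKM with overlapping groups. Ndufaf6 passed the threshold without haloperidol replicate 3 (-0.37), so that 2 factors fell in that fit. Ndufaf1, Ndufaf2 and Ndufaf4 differed by 0.08, -0.01 and 0.02 on the log2 scale. A direct test of the factors against the subunits was not made.

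None of the 4 subunits of complex II, succinate dehydrogenase, passed the threshold. At an unadjusted p below 0.05 there was 1, Sdha, the flavoprotein that oxidises succinate. It measured 156, 168 and 171 FPKM in the DMSO and 150, 153 and 146 FPKM in the haloperidol libraries, all below the DMSO values (log2 fold change -0.14, SE 0.05, limma adjusted p = 0.0727). The iron-sulfur subunit Sdhb (119 ± 2.25 and 126 ± 4.54 FPKM) and the membrane anchor Sdhd (195 ± 9.55 and 214 ± 14.8 FPKM) were higher in all haloperidol libraries, at adjusted p = 0.248 and 0.152. The other anchor, Sdhc, overlapped between groups. Sdha passed the threshold without DMSO replicate 1 (-0.18) and in the voom fit on recovered reads (-0.14).

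Of the 8 nuclear subunits of complex III, the cytochrome bc1 complex, 3 small ones rose and the large core proteins did not pass the threshold. Uqcrq, the ubiquinone-binding subunit, went from 56.8, 54.8 and 53.0 to 63.4, 64.8 and 67.2 FPKM (log2 fold change 0.24, SE 0.05, limma adjusted p = 0.0103). Uqcr10 went from 174, 175 and 179 to 212, 201 and 244 FPKM (0.31, SE 0.07, adjusted p = 0.0143). In both genes every haloperidol library exceeded every DMSO library. The call of Uqcr10 was lost only without the filter on low values (adjusted p = 0.0513). Uqcr11 rose from 207 ± 8.54 to 243 ± 19.2 FPKM (0.23, adjusted p = 0.0349), a call that ended without DMSO replicate 2 or 3 or haloperidol replicate 1 or 3, with an adjusted p of up to 0.118. Among the core and catalytic proteins, Uqcrc1 was at 368 ± 15.5 and 391 ± 12.5 FPKM and Uqcrc2 at 83.9 ± 4.48 and 81.0 ± 1.33 FPKM. The Rieske iron-sulfur protein Uqcrfs1 was at 124 ± 5.28 and 131 ± 9.45 FPKM. Uqcrb (206 ± 4.84 and 225 ± 12.6 FPKM, adjusted p = 0.128) was higher in all haloperidol libraries and Uqcrh was not.

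Complex IV, cytochrome c oxidase, had 15 tested nuclear subunits, of which 5 rose, 0 fell and 13 were higher on average (median log2 fold change 0.15). Its nuclear subunits often come as pairs of isoforms, one widely used and the other tied to tissues such as muscle or testis. Cox7c, a small subunit with 1 form, had the smallest p-value of all 101 genes. It measured 94.7, 93.8 and 92.9 FPKM in the DMSO and 124, 112 and 116 FPKM in the haloperidol libraries, a fold of 1.25 (log2 0.32, SE 0.05, limma adjusted p = 0.00305). Cox5a, a subunit on the matrix side, went from 231, 254 and 239 to 288, 273 and 304 FPKM (log2 0.26, SE 0.06, adjusted p = 0.0144).

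Cox6b2, an isoform best known from testis, rose from 21.7, 22.5 and 20.4 to 29.2, 29.0 and 26.8 FPKM (log2 0.38, SE 0.06, limma adjusted p = 0.00349), whereas its widely expressed partner Cox6b1 was at 401 ± 6.05 and 407 ± 7.46 FPKM (adjusted p = 0.753). Per length Cox6b1 was thus far the more abundant in both groups. The deposited table counted 204 to 286 reads for Cox6b2 in each library. Cox6a1 and Cox5b rose less, from 348 ± 5.77 to 385 ± 7.75 FPKM (0.15, adjusted p = 0.0375) and from 209 ± 2.98 to 237 ± 15.5 FPKM (0.18, adjusted p = 0.0473). Both of these calls ended whichever library was left out, with an adjusted p of up to 0.112 and 0.129. Without DMSO replicate 1 or 3, or any haloperidol replicate, 3 subunits of the complex rose, and 4 without DMSO replicate 2. Cox7a1 fell without haloperidol replicate 3.

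The most abundant nuclear gene of all was Ndufa4, at 869, 855 and 799 FPKM in the DMSO and 887, 850 and 829 FPKM in the haloperidol libraries, and the groups overlapped. Cox8a followed at 532 ± 14.0 and 580 ± 16.9 FPKM, higher in all haloperidol libraries but short of the threshold (adjusted p = 0.0848), as were Cox6c, Cox7a2 and Cox7b (adjusted p = 0.0651, 0.0813 and 0.0681). Cox4i1, the largest nuclear subunit, was at 276 ± 6.46 and 287 ± 20.6 FPKM. The isoforms tied to other tissues were scarce. Cox7a1, the heart and muscle form, had 2 to 8 reads a library, Cox4i2, the lung form, 4 to 19 and Cox6a2, another muscle form, 53 to 114. None passed the threshold with all libraries. Cox8b, Cox8c and Ndufa4l2 had 0 reads in every library and Cox7b2 at most 1, so these 4 were not tested.

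All 15 nuclear subunits of complex V, ATP synthase, were higher on average with haloperidol, by a median of 0.09 on the log2 scale, and 4 rose past the threshold. These were Atp5l and the 3 subunit c genes. Atp5g2, on chromosome 15, 102662864 to 102672352, went from 100.2, 90.6 and 86.2 to 120, 113 and 116 FPKM (log2 fold change 0.33, SE 0.06, limma adjusted p = 0.00666). Atp5g1, on chromosome 11, 96068852 to 96075670, went from 34.8, 33.1 and 33.5 to 39.2, 39.8 and 40.3 FPKM (0.23, SE 0.05, adjusted p = 0.0115). Atp5g3, on chromosome 2, 73908447 to 73911326, went from 136, 140 and 130 to 149, 157 and 161 FPKM (0.20, SE 0.05, adjusted p = 0.0212). Haloperidol libraries were above DMSO libraries in all 3 genes, and Atp5g3 had the highest level of them in each library. The call of Atp5g3 ended without DMSO replicate 1 or 3 or haloperidol replicate 2 or 3, with an adjusted p of up to 0.0657.

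Atp5l, subunit g, which helps hold synthase dimers together, had the largest rise of the nuclear genes. It was at 41.0, 39.9 and 33.2 FPKM in the DMSO and 56.2, 50.8 and 62.8 FPKM in the haloperidol libraries, 1.48-fold (log2 0.56, SE 0.10, limma adjusted p = 0.00476). This gene shares sequence with others in the table, so its reads may be split among them. The pseudogene Gm10221 had more reads (232 to 410) than Atp5l (153 to 286), and the pseudogene Atp5l2, itself among the 106, rose with a call at the edge of the threshold (15.1 ± 1.16 and 21.9 ± 5.78 FPKM, adjusted p = 0.0494, up to 0.14 with a library left out). The recovered reads of Atp5l and 6 near copies together were 533, 505 and 425 in the DMSO and 665, 658 and 776 in the haloperidol libraries, 1.44-fold after scaling by size factors.

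The catalytic head of complex V did not pass the threshold. Its beta subunit Atp5b was at 519 ± 13.3 and 540 ± 14.8 FPKM and its alpha subunit Atp5a1 at 449 ± 17.2 and 475 ± 6.25 FPKM, with adjusted p = 0.396 and 0.231. The gamma subunit Atp5c1, the central shaft, was at 226 ± 4.62 and 239 ± 7.41 FPKM (adjusted p = 0.223). Atp5j2, subunit f, differed least, by 0.02 on the log2 scale.

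Copies with near-identical sequence matter for counting across the family. Of 104 genes with a coding transcript to compare, 35 matched a transcript of another symbol at 95% identity or more over at least 200 bases. For 25 such a match had its own row in the table. Transcripts that overlap at the same locus were not set aside, so these counts may include shared exons. Matches at 100% identity included Tssk6 for Ndufa13 and Pdzd9 for Uqcrc2. Of the 20 genes past the threshold that could be compared, 5 had a copy: Atp5g1, Atp5l, Cox5b, Cox7c and Ndufa12. Adding the reads of the copies moved the ratio of group means of Atp5g1, Cox5b, Cox7c and Ndufa12 by no more than 0.01: with copies Atp5g1 was at 1.17, Cox5b at 1.13 and Cox7c at 1.26.

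**Figure D3:**
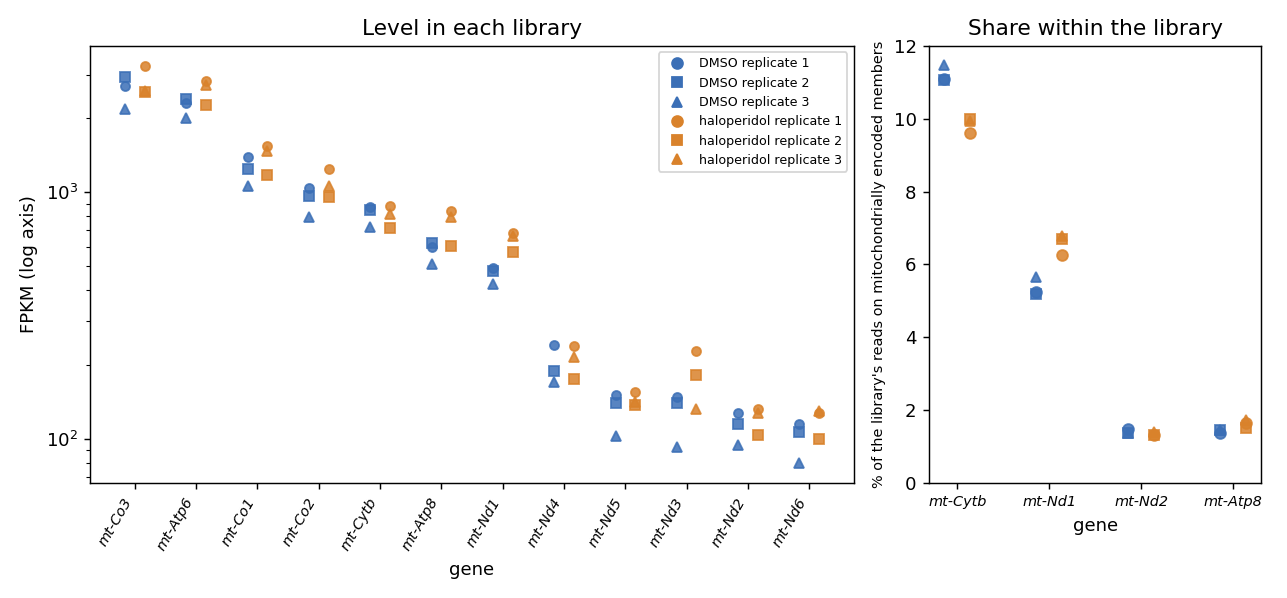
Left, FPKM (log axis) of the 12 mitochondrially encoded genes above 0 in each DMSO (blue) and haloperidol (orange) library. Right, share of each library's reads on mitochondrially encoded genes that fell on 4 of them. Only mt-Nd1 separates the groups on the left, and on the right mt-Nd1 and mt-Atp8 are higher and mt-Cytb lower in all haloperidol libraries, while mt-Nd2 overlaps.

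Mitochondrial DNA is transcribed as long precursors that are cut into single messages, so levels of its genes tend to vary together. They spanned a wide range per length, from 100.2 ± 18.2 FPKM for mt-Nd6 to 2603 ± 384 FPKM for mt-Co3 in DMSO libraries. The 13 genes took 0.907%, 0.888% and 0.724% of reads in the DMSO libraries and 1.05%, 0.835% and 0.944% in the haloperidol libraries. The groups overlapped, with DMSO replicate 3 the lowest. Of the 12 tested, 1 rose (8.33%, beside 11.5% of all tested genes) and 11 were higher on average. Their median log2 fold change was 0.20. It became 0.09 without DMSO replicate 3, 0.11 without haloperidol replicate 1 and 0.30 without haloperidol replicate 2. For 11 of the 12 the groups overlapped. The number that rose was 3 without haloperidol replicate 2, 2 without haloperidol replicate 3 and 4 in the voom fit.

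The gene that rose was mt-Nd1, a membrane core subunit of complex I, at positions 2751 to 3707 of the mitochondrial genome and next after the ribosomal RNAs and a tRNA. It was at 491, 479 and 426 FPKM in the DMSO and 684, 574 and 665 FPKM in the haloperidol libraries (465 ± 34.4 against 641 ± 59.0 FPKM, log2 fold change 0.46, SE 0.08, limma adjusted p = 0.00465). The call held in each of the 15 other settings planned for all genes. The ribosomal RNAs upstream did not separate the groups: mt-Rnr2 was at 604 ± 103 and 609 ± 75.0 FPKM and mt-Rnr1 at 59.9 ± 11.5 and 62.8 ± 9.31 FPKM.

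Within the mitochondrial messages the shares of mt-Nd1 and mt-Cytb did not overlap between groups. The share of mitochondrially encoded reads on mt-Nd1 was 5.24%, 5.20% and 5.67% in the DMSO and 6.27%, 6.69% and 6.77% in the haloperidol libraries. For mt-Cytb, the catalytic subunit of complex III at positions 14145 to 15288, the shares were 11.1%, 11.1% and 11.5% against 9.61%, 9.98% and 9.93%. In FPKM mt-Cytb did not differ past the threshold (815 ± 80.6 and 803 ± 81.3, adjusted p = 0.894), and it was the one tested gene of the 12 with a negative fold change (-0.02).

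The ratio of mt-Cytb to mt-Nd1 FPKM was 1.77, 1.78 and 1.69 in the DMSO and 1.28, 1.25 and 1.23 in the haloperidol libraries. This ratio was not planned. It sets the gene that rose against the one with the lowest fold change, so it is no independent support for a difference. Of the 12 shares, those of mt-Nd1, mt-Cytb and mt-Atp8 separated the groups and the other 9 overlapped. With each library set to the same sum of mitochondrially encoded FPKM, a scaling added after seeing the data, mt-Nd1 differed by 0.27 (limma adjusted p = 0.242) and mt-Cytb by -0.21 (adjusted p = 0.375). Neither passed the threshold, and that scaling shifts the median of all tested genes by -0.16.

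The other mitochondrial genes are given by complex. Of complex I, mt-Nd3 was at 148, 140 and 92.4 against 227, 181 and 132 FPKM (log2 fold change 0.50, adjusted p = 0.130), with 290 to 679 reads. Its groups overlapped because haloperidol replicate 3 fell below DMSO replicates 1 and 2. Levels of mt-Nd2 (112 ± 16.7 and 121 ± 15.1 FPKM), mt-Nd4 (200 ± 35.9 and 209 ± 31.7 FPKM) and mt-Nd5 (131 ± 25.2 and 144 ± 9.20 FPKM) overlapped as well. mt-Nd6 lies on the other strand (100.2 ± 18.2 and 119 ± 16.5 FPKM), and these libraries keep no strand, so its reads cannot be told from antisense transcripts there. mt-Nd4l was listed at 0 in every library, as was Gm10222, a nuclear copy of identical sequence, while its neighbour mt-Nd4 had 2116 to 2945 reads.

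Of complex IV, mt-Co1, the subunit with the oxygen-reducing centre, was at 1229 ± 162 and 1396 ± 193 FPKM, mt-Co2 at 936 ± 127 and 1085 ± 145 FPKM and mt-Co3 at 2603 ± 384 and 2799 ± 402 FPKM. Of complex V, mt-Atp6, the proton channel, was at 2240 ± 203 and 2606 ± 308 FPKM. mt-Atp8 was at 600, 621 and 511 against 843, 606 and 795 FPKM (log2 fold change 0.36, adjusted p = 0.0623), with haloperidol replicate 2 below DMSO replicate 2. The messages of mt-Atp8 and mt-Atp6 overlap by 43 bases. Copies were sought among annotated transcripts only, over at least 200 bases, and the rest of the genome was not searched. Nuclear copies of at least 95% identity were found for mt-Atp6, mt-Co1, mt-Co2, mt-Co3, mt-Nd2, mt-Nd3, mt-Nd4, mt-Nd4l and mt-Nd5. The search gave none for mt-Nd1, mt-Cytb, mt-Atp8 or mt-Nd6. As mt-Atp8 has 204 bases, a copy of it could hardly meet that length, so its absence cannot be read from this search.

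Both genomes supply complexes I, III, IV and V, and within a complex the medians had the same sign except for complex III. For complex I the median log2 fold change was 0.10 over 36 nuclear and 0.20 over 6 mitochondrial genes, for complex IV 0.15 over 15 and 0.18 over 3, and for complex V 0.09 over 15 and 0.29 over 2. Complex III had 0.10 over 8 nuclear genes and -0.02 for mt-Cytb. Summed FPKM of the mitochondrial genes divided by that of the nuclear genes was 0.916, 0.909 and 0.740 in the DMSO and 1.03, 0.818 and 0.876 in the haloperidol libraries, which overlapped. The spread between libraries was larger for the mitochondrial genome: the SD of a library's median deviation, pooled over groups, was 0.19 for its genes and 0.04 for the nuclear genes.

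**Figure D4:**
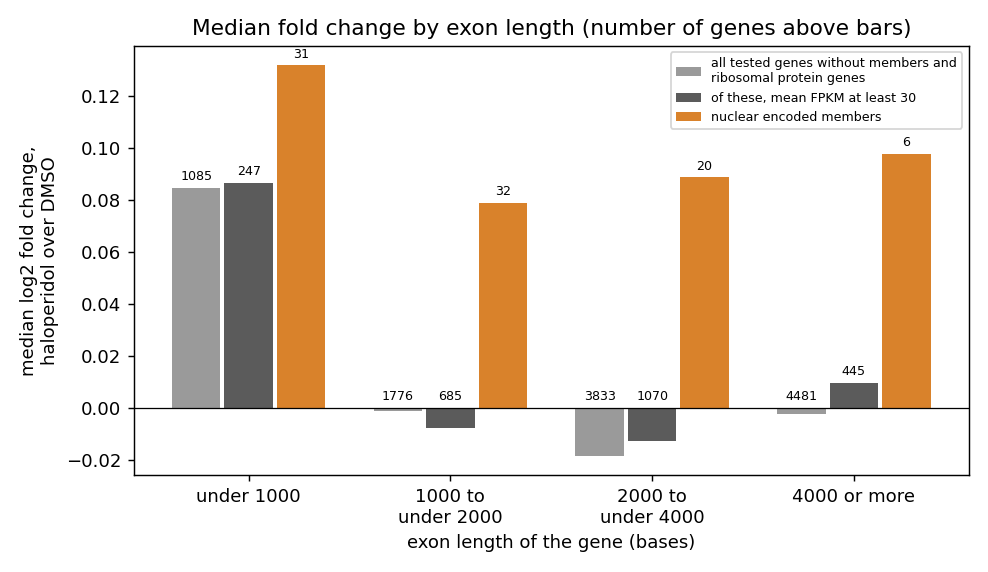
Median log2 fold change by exon length for all tested genes without these members and without ribosomal protein genes (light grey), for those of them with a mean of at least 30 FPKM (dark grey) and for the nuclear members (orange), with the number of genes above each bar. Below 1000 bases the medians are 0.08, 0.09 and 0.13, and in the 3 longer classes the grey bars are within 0.02 of 0 while the orange bars lie between 0.08 and 0.10.

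Many nuclear subunits are short, and short genes differed from long ones in the whole table. Among tested genes under 1000 bases of exon, without these members and without ribosomal protein genes, the median log2 fold change was 0.08 and 13.6% rose, and at a mean of at least 30 FPKM it was 0.09 and 25.5%. Of the 31 nuclear members that short 10 rose (32.3%) and 0 fell, at a median of 0.13. For lengths of 1000 to under 2000 bases 5 of 32 members rose and 1 fell, for 2000 to under 4000 bases 3 of 20 rose and for 4000 bases or more 1 of 6. The members' medians in these classes were 0.08, 0.09 and 0.10, where those of the other genes were between -0.02 and 0.00. The part of gene length in the calls was not tested.

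Genes that work beside the chain, from lists chosen by function, did not all move with it. Of 26 carriers and subunits outside the symbol rule 9 rose (34.6%) and 2 fell (7.69%), beside 11.5% and 13% of all tested genes. Ucp2, an inner membrane carrier of the uncoupling protein family, was at 125, 125 and 124 against 191, 188 and 223 FPKM (log2 fold change 0.68, SE 0.07, limma adjusted p = 4.05e-04). Slc25a5, the ADP/ATP carrier that brings ADP to the synthase, was at 512, 523 and 504 against 669, 671 and 698 FPKM (0.40, SE 0.04, adjusted p = 5.54e-04). Etfb, of the flavoprotein that feeds electrons from fatty acid oxidation into the chain, was at 284, 293 and 293 against 354, 347 and 362 FPKM (0.29, adjusted p = 0.00240). All 3 calls held in every setting, and the groups did not overlap. Cytochrome c itself, Cycs (41.6 ± 1.58 and 44.4 ± 3.75 FPKM), and Cyc1 of complex III (197 ± 12.4 and 217 ± 14.5 FPKM) did not pass the threshold. Without DMSO replicate 2, 5 of the 26 rose, and 0 or 1 fell whichever library was left out.

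Of 34 tested assembly factors outside the symbol rule 3 rose (8.82%) and 5 fell (14.7%), near the shares of all tested genes, with a median of -0.01. The falls with the smallest p were Sdhaf2, which attaches flavin to Sdha (16.3 against 12.3 FPKM on average, log2 fold change -0.38, limma adjusted p = 0.00632), and the complex IV factors Coa6 (23.6 against 18.0 FPKM, -0.37, adjusted p = 0.00678) and Coa3 (74.2 against 52.9 FPKM, -0.49, adjusted p = 0.00738). These 3 calls held in every setting. The number that rose was 0 without DMSO replicate 1 or 2 or haloperidol replicate 1. It was 2 without DMSO replicate 3 and 1 without haloperidol replicate 2 or 3, while 4 to 6 fell in these fits. Of the complex I factors in this list, Foxred1 rose (log2 fold change 0.27, limma adjusted p = 0.0249). That call was lost without DMSO replicate 1 or 2 or haloperidol replicate 1 or 3. Ecsit, Nubpl and Tmem126b were higher on average, and Acad9 and Timmdc1 lower.

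Of 11 tested regulators of respiratory chain genes 4 fell (36.4%, beside 13% of all tested genes) and 0 rose, and 6 were higher on average. In the voom fit 4 fell and 2 rose, and with upper quartile scaling 2 fell and 1 rose. Gabpb1, the partner subunit of the ETS factor GABP, was at 27.6, 26.0 and 27.7 against 22.9, 21.6 and 21.5 FPKM (log2 fold change -0.29, SE 0.06, limma adjusted p = 0.00782) and held in every setting. Nrip1, a corepressor, Sirt3, a mitochondrial deacetylase, and Nrf1, the factor whose motif was searched above, fell by 0.28, 0.19 and 0.24 on the log2 scale, with adjusted p = 0.0305, 0.0318 and 0.0381. These calls were lost in 4, 5 and 6 of the 6 fits with a library left out, with adjusted p of up to 0.104, 0.0949 and 0.116. The number that fell was then 1 without DMSO replicate 1 or 2 or haloperidol replicate 1, and 2 without each of the others, and 1 rose without DMSO replicate 1. Nrf1 was picked out after its value was seen, as were 3 genes that were higher in all haloperidol libraries and short of the threshold: Ppargc1b, a coactivator (0.37, adjusted p = 0.0702), the nuclear receptor gene Esrra (0.34, adjusted p = 0.0900) and Sirt1, a deacetylase (0.23, adjusted p = 0.0622). The DNA-binding subunit Gabpa (log2 fold change -0.01) and Yy1 (11.4 ± 1.55 and 11.4 ± 0.857 FPKM) were not past the threshold, and the coactivator gene Ppargc1a, below 1 FPKM, was not tested.

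Of 29 genes for transcription, copying and processing of mitochondrial RNA and DNA 1 rose (3.45%) and 2 fell (6.90%). Both shares were below the 11.5% and 13% of all tested genes. Fastkd2, an RNA-binding protein of mitochondria, and Hsd17b10, a part of the mitochondrial RNase P, fell by 0.48 and 0.32 (limma adjusted p = 0.0104 and 0.0127), and both held in every setting. Mterfd1 rose by 0.29 (adjusted p = 0.0375), a call that ended without DMSO replicate 1 or 3 or any haloperidol replicate. Tfam, which packs and transcribes mitochondrial DNA (15.5 ± 0.563 and 16.6 ± 0.753 FPKM), and the polymerase gene Polrmt (10.5 ± 0.796 and 10.5 ± 0.806 FPKM) did not pass. In the citric acid cycle, which supplies the NADH and succinate, 2 of 16 genes rose (12.5%, near the 11.5% of all tested genes). These were Cs, by 0.20, and Dlst, by 0.18 (limma adjusted p = 0.0301 and 0.0344). With a library left out, Cs was called only without haloperidol replicate 1 and Dlst only without DMSO replicate 3, with adjusted p of up to 0.0908 and 0.101.

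The 2 ribosomes gave differing counts. Of 75 tested genes for mitochondrial ribosomal proteins, which translate the 13 messages, 4 rose and 4 fell at a median of 0.02. Of 85 for cytosolic ribosomal proteins 44 rose and 1 fell at a median of 0.21. The nuclear subunits of complexes I to V had 18 of 78 that rose, 0 that fell and a median of 0.10. In this order the shares that rose were 5.33%, 51.8% and 23.1%, beside 11.5% of all tested genes. In each of the 3 lists the share that fell was below the 13% of all tested genes. The lists differed in abundance, with median DMSO levels of 29.2, 164 and 100.5 FPKM, and changes of abundant genes are easier to call. The difference between the 3 lists was not tested.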

How the data were processed

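RNA was measured in 3 DMSO and 3 haloperidol libraries, grouped by the labels' treatment field. Per the labels' protocols, cDNA came from a SMART-Seq low-input kit and libraries from a Nextera kit, which keep no strand. Tools listed in the submitters' processing notes are DESeq2 1.18.1, HTSeq 0.6.1, TopHat2 2.1.1 and bcl2fastq 2.19.1.403, with build mm10. The annotation release, like the counter's options, is not given in the sources used here.

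Per gene, the table deposited by the authors holds FPKM, with 0 columns of other samples. FPKM came out as whole reads for 100.0% of the 20633 genes above 0 within 0.001 reads, and the libraries were scaled by size factors, not totals. The 11436 genes averaging 1 FPKM or more over the 6 libraries were fitted as log2(FPKM + 1) by limma (version 3.58.1, R 4.3.3), two-sided, with trended prior variance, without covariates and with Benjamini-Hochberg adjustment over all of them at 0.05. A pseudocount of 1 understates changes of low genes. The fit was tested on simulated data with changes larger than that of any called member, so recovery of changes as small as these was not tested. Copies were found with BLAST 2.17.0. Recovered reads gave depth, shares, sums with copies and a voom fit. Libraries of a group differed beyond sampling noise.

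Members and lists were chosen with earlier results of these data known. Named genes are every mitochondrial gene, for each class the 4 with the smallest p and the 2 with the highest DMSO mean, the isoform families, the largest changes past the threshold in each complex, and up to 3 called genes of each other list. Names beyond the rule were chosen after their values were seen. Alternatives changed the scaling, the filter, the pseudocount, the prior trend, the replicate block or the libraries used. Some genes are not reported here by name.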

Additional observations from a re-analysis of the deposited data

How the results depend on the processing

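Against 20 genes higher and 1 lower, the number higher was 11 with no filter on low values and 10 with no trend in the prior variance, and 11 to 18 with 1 library left out. The number lower was 3 with a common sum of FPKM, a common sum of nuclear FPKM or a mean of at least 5 FPKM, 2 in the voom fit on recovered reads and 1 to 4 with 1 library left out. Over all genes, 1814 to 2160 differed with 1 library left out, against 2807 (1814 without DMSO replicate 2). Upper quartile scaling gave 1551 genes higher and 1327 lower beside 1320 and 1487, and 26 of the oxidative phosphorylation genes higher. Of the 21 calls, 10 held in all 15 settings (Atp5g1, Atp5g2, Atp5l, Cox5a, Cox6b2, Cox7c, Ndufaf3, Ndufv1, Uqcrq and mt-Nd1) and 11 were lost in at least 1. Beyond fewer libraries or more genes tested, the cause was not tested.

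Replicate numbers did not pair the libraries: deviations of same-numbered libraries correlated at 0.009, 0.055 and 0.020, and DMSO replicates 1 and 3 correlated best with another number. A fit with the number as a replicate block gave 16 genes higher and 2 lower, with 16 of the 21 calls among them, and 2552 genes in all.

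Differences that changed sign were past the threshold neither as reported nor with the sign changed. With upper quartile scaling Cox7a2l, Ndufaf2 and mt-Cytb were at 0.013, 0.013 and 0.0059, with a common sum of FPKM Cox6b1 at -8.55e-05 and Ndufb9 at -0.013, and with a common nuclear sum Ndufb9 at -0.0088. With a common mitochondrial sum mt-Co1, mt-Co3, mt-Nd2, mt-Nd4 and mt-Nd5 were at -0.0040, -0.080, -0.073, -0.12 and -0.034. With 1 library left out Cox4i1 ran from -3.75e-04 to 0.10, Cox7a2l from -0.057 to 0.049, Ndufa4 from -0.012 to 0.048, Ndufaf2 from -0.14 to 0.068, Ndufb9 from -0.011 to 0.036, mt-Co3 from -0.015 to 0.20, mt-Cytb from -0.10 to 0.060, mt-Nd2 from -0.0071 to 0.22, mt-Nd4 from -0.041 to 0.20 and mt-Nd5 from -0.014 to 0.26.

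Precision is limited by 3 libraries a group, and Cox4i2 and Cox7a1 rest on at most 19 and 8 reads a library.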
